A study of Mus musculus with 14 samples.

Results

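The secreted or surface-bound products of activated T cells and natural killer (NK) cells followed here, across mouse T cell libraries, were the cytokines Ifng, Tnf, Csf2, Lta, Ltb and Il4 and the chemokines Ccl3, Ccl4, Ccl5 and Xcl1. They are 10 of the 50508 gene symbols counted by bulk RNA sequencing, all 10 had a row in both count tables, and they were chosen by name. The study concerned ILTCk, which are innate-like killer T cells with an αβ receptor found in mouse tumours, and their progenitors in the thymus (ILTCkP). The 5 groups held 2 libraries each, which are called biological replicates, although separate animals are not stated, so a p-value here reflects the spread of these libraries, which may be technical.

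CD8SP (CD8 single-positive thymocytes) and ILTCkP were labelled with the model C57BL/6. The sort for thymic progenitors took cells with no or dull CD4 and CD8α that did not bind the CD1d tetramer loaded with PBS-57, which marks natural killer T cells; the rest of that gate is cut short in the labels. PD1+ Tconv, conventional T cells with the PD-1 receptor, and both NK1.1- ILTCk and NK1.1+ ILTCk were labelled retrogenic, a model in which mice are rebuilt from blood stem cells given a T cell receptor by a virus. The receptor used is not given in the sources used here. The NK1.1+ ILTCk sort took CD45+ TCRβ+ CD8α+ cells from tumours that lacked CD4, TCRγδ and PD-1 and carried NK1.1, and the PD1+ Tconv sort differed in taking PD-1+ cells without NK1.1. The gate of the NK1.1- group is not given, and the characteristics of both tumour ILTCk groups read ILTCkP, so the titles were followed. Age, sex and tumour model of the retrogenic mice are not stated.

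Killer lymphocytes act through cytotoxic granules and through the cytokines and chemokines that they release after their antigen or activating receptors are engaged. Interferon-γ, encoded by Ifng, switches on antigen presentation and macrophage activation, and TNF and the lymphotoxins signal to NF-κB through receptors of the TNF receptor family. The chemokines CCL3, CCL4 and CCL5 recruit macrophages, monocytes and activated T cells, while XCL1 attracts the cross-presenting dendritic cells that carry XCR1. Macrophages also make TNF, CCL3 and CCL4, so in bulk RNA these transcripts need not come from the sorted lymphocytes.

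The libraries held between 16530085 and 32097301 counts and 17741 to 24559 detected genes. Levels are CPM, the counts of a gene relative to the total of its library, scaled by TMM over all 10 libraries. Thymic and tumour libraries were deposited in separate tables with no group in common, so tissue, model and table cannot be told apart and no level was tested across them. Transcripts of the T cell list (CD3 chains, T cell receptor constants, Lck, Cd8a and Cd8b1) summed to between 8003 and 15600 CPM in the thymus and to between 975 and 7407 CPM in the tumour libraries. The sum of 14 macrophage and monocyte genes was 26.6 to 49.3 CPM in the thymus, 298 and 1444 CPM in PD1+ Tconv, 4485 and 3899 CPM in NK1.1- ILTCk, and 9375 and 26737 CPM in NK1.1+ ILTCk, with all 14 genes detected in each tumour library. The summed epithelial and dendritic cell lists were also higher in the ILTCk libraries than in PD1+ Tconv, but not every gene of them or every list was. The epithelial and mammary tumour list summed to 10716 and 6168 CPM in NK1.1- ILTCk and 6008 and 6887 CPM in NK1.1+ ILTCk, against 2140 and 2010 CPM in PD1+ Tconv, and the dendritic cell list to 5237 and 1891 CPM and 12613 and 8036 CPM, against 365 and 788 CPM. The stromal and endothelial list summed to 68.1 and 13.9 CPM in NK1.1+ ILTCk, against 57.6 and 216 CPM in PD1+ Tconv. NK1.1- ILTCk, at 182 and 117 CPM, lay between the PD1+ Tconv libraries. The γδ T cell list summed to 1209 and 615 CPM in PD1+ Tconv, against 428 and 209 CPM in NK1.1- ILTCk and 807 and 158 CPM in NK1.1+ ILTCk. The part of any of these cells in the tumour differences was not tested. In ILTCkP the γδ T cell list summed to 290 and 435 CPM, against 20.9 and 17.7 CPM in CD8SP. A higher CPM from a larger number of cells of a type cannot be told apart from more RNA per cell in these bulk data.

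The promoters of 5 members are shown because their transcripts took different courses over the 5 groups: Ifng, Tnf, Ccl3, Xcl1 and Il4. Each sequence is the 250 bases before the gene's RefSeq start on GRCm38.p6, read 5′ to 3′ on the gene's strand. Capitals mark every match, on either strand, to 7 motifs. The TATA box was searched as TATAAA and the core of the site of NFAT, the calcium-driven factor of activated T cells, as GGAAA. The AP-1 site of Fos and Jun proteins was searched as TGANTCA and the site of T-box factors such as T-bet as GGTGTGA. The core of the site of RUNX proteins was searched as TGTGGT and the cyclic AMP response element (CRE) as TGACGTCA. The last motif was the NF-κB consensus. Ifng lies on chromosome 10 (window chr10:118440796-118441045, plus strand), Tnf on chromosome 17 (chr17:35202008-35202257, minus strand), Ccl3 on chromosome 11 (chr11:83649379-83649628, minus strand), Xcl1 on chromosome 1 (chr1:164935523-164935772, minus strand) and Il4 on chromosome 11 (chr11:53618666-53618915, minus strand, the outer of 2 annotated starts).
Ifng: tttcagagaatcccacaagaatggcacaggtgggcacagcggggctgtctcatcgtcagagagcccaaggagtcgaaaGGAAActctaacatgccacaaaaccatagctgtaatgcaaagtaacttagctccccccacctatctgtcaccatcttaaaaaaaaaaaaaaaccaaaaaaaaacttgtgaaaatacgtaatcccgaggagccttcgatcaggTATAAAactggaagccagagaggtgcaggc
Tnf: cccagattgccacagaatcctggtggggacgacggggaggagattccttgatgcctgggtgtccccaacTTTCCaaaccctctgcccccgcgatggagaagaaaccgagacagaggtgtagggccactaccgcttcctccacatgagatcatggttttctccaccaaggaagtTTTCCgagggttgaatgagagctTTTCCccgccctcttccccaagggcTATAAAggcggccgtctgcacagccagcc
Ccl3: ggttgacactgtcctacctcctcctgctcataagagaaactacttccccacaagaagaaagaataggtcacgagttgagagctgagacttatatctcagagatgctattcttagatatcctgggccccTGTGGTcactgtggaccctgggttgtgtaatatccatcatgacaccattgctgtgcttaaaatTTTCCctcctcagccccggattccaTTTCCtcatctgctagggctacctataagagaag
Xcl1: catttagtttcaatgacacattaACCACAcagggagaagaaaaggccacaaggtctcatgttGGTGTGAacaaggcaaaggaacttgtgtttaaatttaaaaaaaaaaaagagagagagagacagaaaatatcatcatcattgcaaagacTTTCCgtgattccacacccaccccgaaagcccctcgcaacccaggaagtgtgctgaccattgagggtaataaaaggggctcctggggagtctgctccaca
Il4: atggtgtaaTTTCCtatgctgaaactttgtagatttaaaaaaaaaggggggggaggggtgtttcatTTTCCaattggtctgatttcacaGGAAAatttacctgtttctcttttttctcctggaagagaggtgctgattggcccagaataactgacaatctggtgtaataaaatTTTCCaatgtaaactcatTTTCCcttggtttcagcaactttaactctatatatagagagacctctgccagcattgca

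The Ifng and Tnf windows each held a TATA box, at 30 to 25 and at 29 to 24 bases before the start, a motif found in 12.4% of the 32841 windows of the RefSeq table. The NFAT core was present in all 5 windows and in 55.6% of all windows, with 1 copy in Ifng, 3 in Tnf, 2 in Ccl3, 1 in Xcl1 and 5 in Il4. The Xcl1 window held a T-box site at 188 to 182 bases before the start (3.33% of all windows) and a RUNX core (14% of all windows), and the Ccl3 window held a RUNX core. No match to the AP-1 motif, the CRE or the NF-κB consensus lay in these 5 windows, and these motifs occurred in 6.75%, 1.55% and 7.25% of all windows. Windows for Csf2, Lta and Ltb were in the same table, and the Ltb window held the NF-κB consensus at 87 to 78 bases before the start, overlapping an NFAT core. The matches are a description of letters, not of bound sites.

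Several members are neighbours. Ltb, Tnf and Lta lie side by side on chromosome 17, with 3060 bases between Ltb and Tnf and 1157 between Tnf and Lta. Ccl3 and Ccl4 lie 13228 bases apart on chromosome 11, 117 kb from Ccl5. Il4 and Csf2 are 629 kb apart on the same chromosome. In GENCODE M21 the predicted transcript Gm20743 overlaps Xcl1 on the opposite strand. Its counts came to between 2.17 and 5.71% of the Xcl1 counts, and no source used here says whether the counting used strand, and reads of the pair cannot then be told apart.

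**Figure D1:**
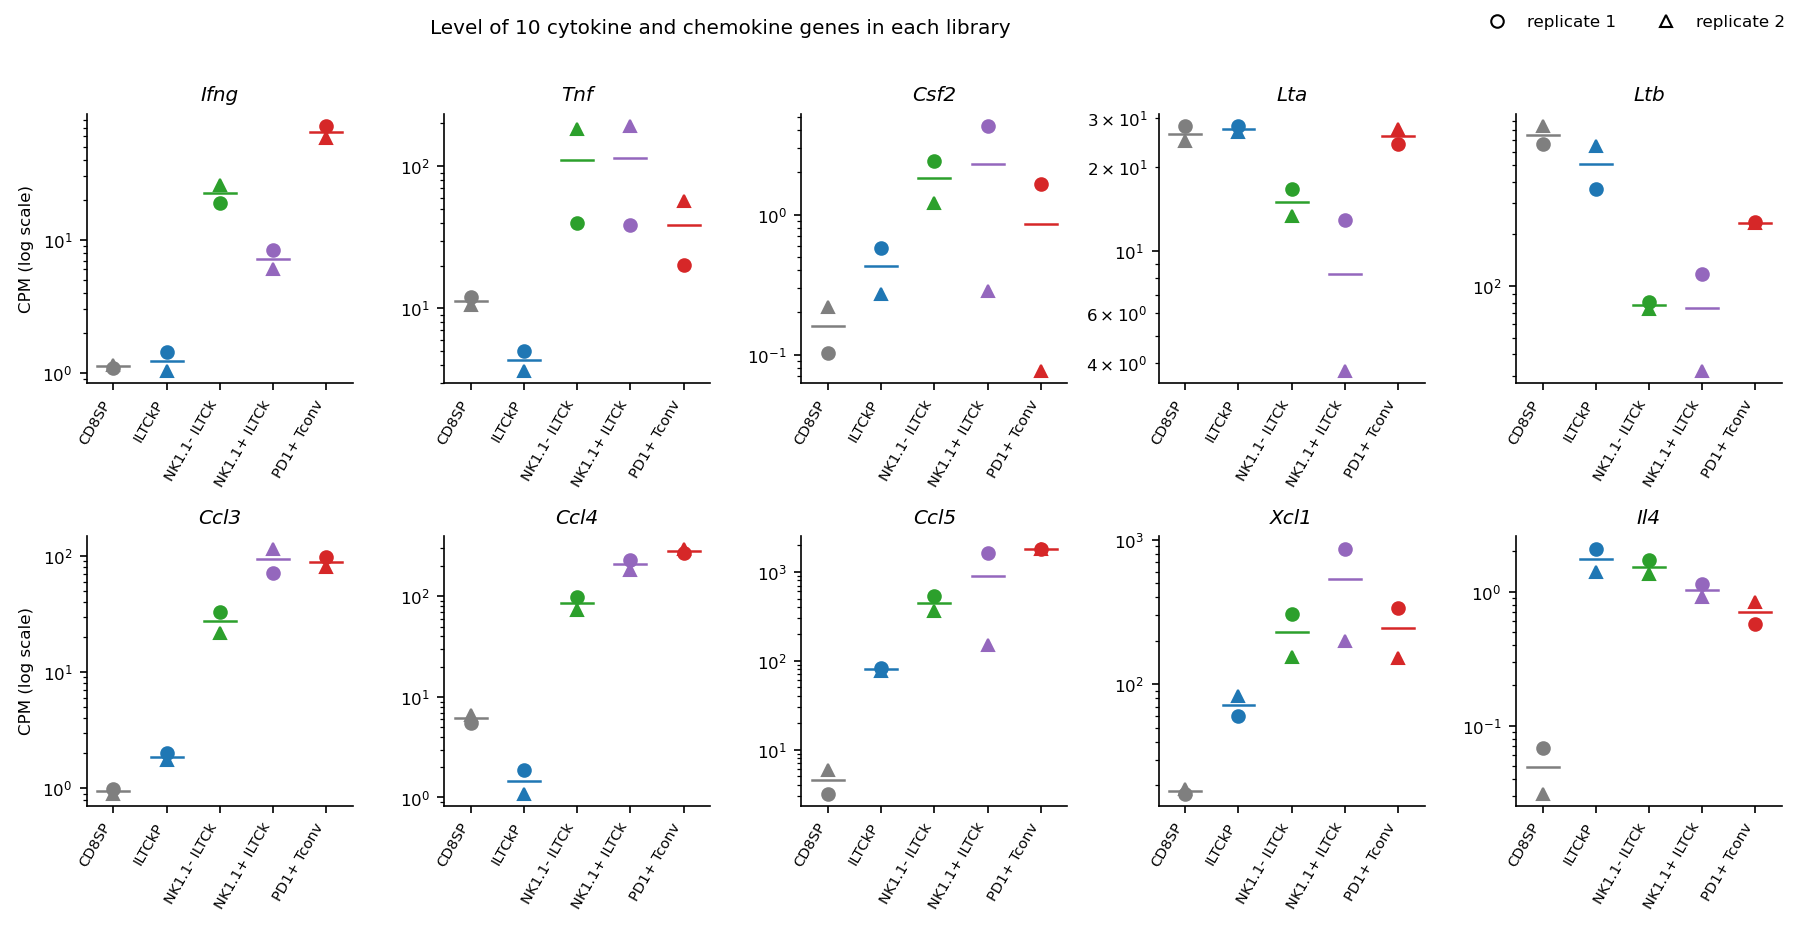
CPM on log axes (a separate range for each gene) of the 10 members in the 10 libraries; circles are replicate 1, triangles replicate 2, and bars the mean of 2 libraries. Ifng, Tnf, Ccl3, Ccl4, Ccl5 and Xcl1 are higher in every tumour library than in every thymic one, and Ltb is highest in the thymus. The share of all genes that separate the tissues is not given here. Tnf is higher in replicate 2 than in replicate 1 of each tumour group.

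The makeup of the cytokine message differed between tissues. Ltb, the membrane-bound lymphotoxin, supplied 90.6 and 92.4% of the members' summed CPM in CD8SP and 66.2 and 76.9% in ILTCkP, but 3.63 to 8.46% in the tumour libraries. Ccl5 supplied 62.8 and 66.8% in PD1+ Tconv, against 46.9 and 40.2% for NK1.1- ILTCk and 54.6 and 17.1% for NK1.1+ ILTCk. It supplied 15.2 and 9.08% in ILTCkP, and 0.435 and 0.651% in CD8SP. Per kilobase of exon, which allows levels of different genes to be compared, Ltb was first and Xcl1 second in all 4 thymic libraries. Ccl5, Xcl1 and Ccl4 took the first 3 places in 5 of the 6 tumour libraries; in NK1.1- ILTCk replicate 2 Tnf took the third place, and Ccl4 came after it. Csf2 and Il4 held the last 2 places in all 6 tumour libraries and in CD8SP.

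In the thymus, ILTCkP had more Ccl5, Xcl1 and Il4 RNA than CD8SP. By edgeR's quasi-likelihood test with Benjamini-Hochberg adjustment over 14634 genes, 3 of the 9 members tested rose in ILTCkP and none fell, beside 3.38% of all tested genes that rose and 1.33% that fell. Csf2 did not pass the filter on low counts. The median log2 fold change of the 9 members was 0.13, against 0.01 for all tested genes. The libraries of the 2 groups did not overlap for 7 of the 9, 4 higher (28.8% of all tested genes) and 3 lower (29.3%) in ILTCkP. DESeq2 called the same 3 members higher and also Tnf and Ccl4 lower, where it called 4.58% of its 15403 genes lower.

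Between the tumour groups edgeR called none of the 18091 tested genes (0%) at an adjusted p under 0.05 in any of the 3 comparisons, so no member rose or fell by that test. At an unadjusted p under 0.05, 3 members differed between NK1.1+ ILTCk and PD1+ Tconv (Ifng, Ltb and Lta; 14.3% of all tested genes), 4 between NK1.1- ILTCk and PD1+ Tconv (Ifng, Ltb, Ccl3 and Ccl4; 11.9%), and 3 between NK1.1+ and NK1.1- ILTCk (Ifng, Ccl3 and Ccl4; 3.94%). DESeq2 called 1, 3 and none of the members in these comparisons, each lower than in PD1+ Tconv, and it called 3.27% of its 17540 genes lower in the first, 1.59% of 16339 lower in the second and 0.337% of 16339 in either direction in the third. The members' median log2 fold change was -0.33, -1.33 and 0.21, against -0.04, -0.04 and 0.01 for all tested genes. Both comparisons with PD1+ Tconv use the same 2 PD1+ Tconv libraries.

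Libraries with the same replicate number deviated together in the tumour table, so edgeR was also fitted with the replicate number as a block. With that block 755 genes were called between NK1.1+ ILTCk and PD1+ Tconv, and Ifng was the 1 member among the lower calls, which made up 1.79% of all tested genes. The block gave 298 calls between NK1.1- ILTCk and PD1+ Tconv, with Ccl4 the 1 member among lower calls that made up 0.735% of all tested genes. It gave 0 calls between the 2 ILTCk groups, where 712 genes had an unadjusted p under 0.05 in edgeR without the block and DESeq2 called 55.

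**Figure D2:**
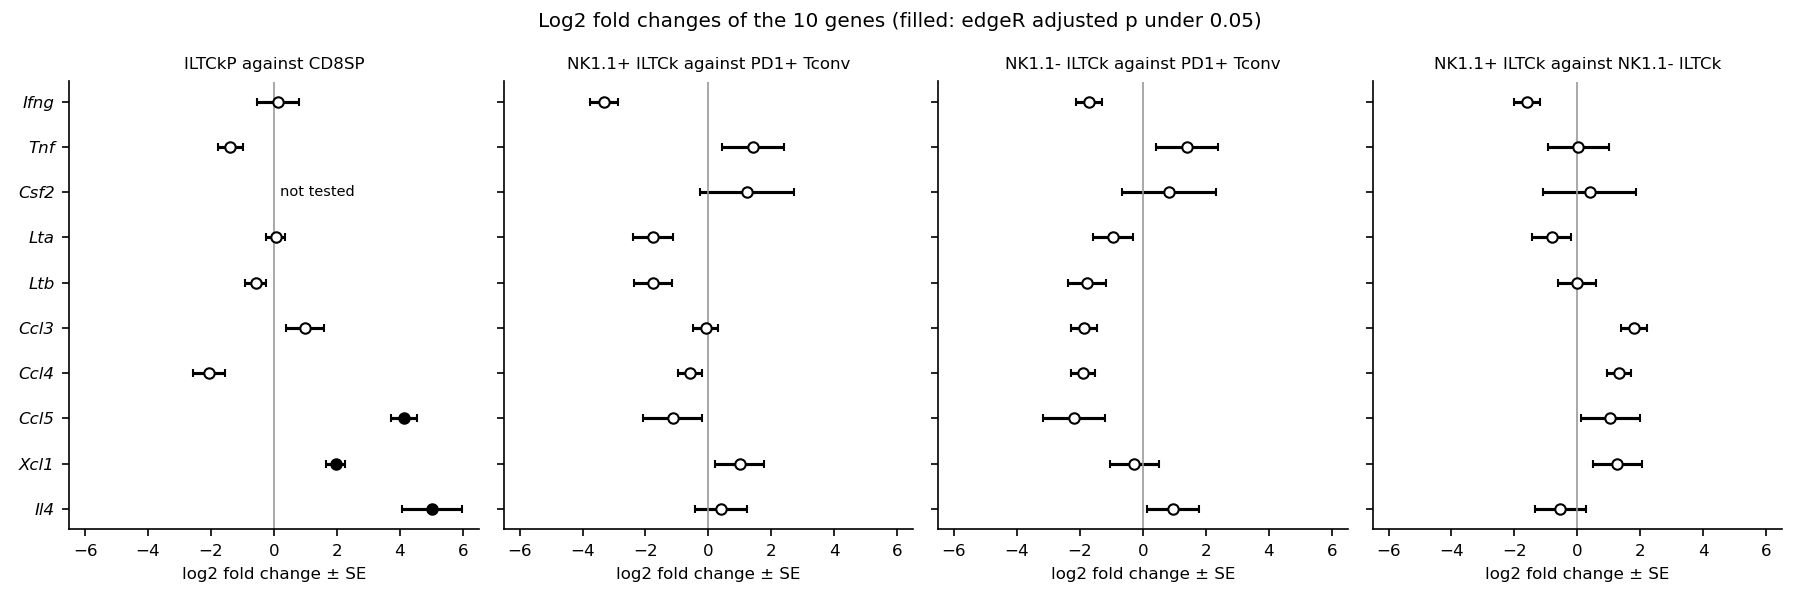
Log2 fold change ± standard error (x axis) of each member (y axis) in the 4 comparisons, from edgeR fits of 2 libraries a group; filled points passed an adjusted p under 0.05 and open points did not. Only Ccl5, Xcl1 and Il4 in the thymic comparison are filled, and Ifng lies at -3.31 between NK1.1+ ILTCk and PD1+ Tconv.

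Ifng, the signature cytokine of type 1 immunity, was ordered PD1+ Tconv, NK1.1- ILTCk, NK1.1+ ILTCk among the tumour groups. Its level was 71.7 and 58.8 CPM in PD1+ Tconv, 18.9 and 25.9 CPM in NK1.1- ILTCk, and 8.42 and 6.07 CPM in NK1.1+ ILTCk. Both thymic groups were near 1 CPM: 1.09 and 1.15 in CD8SP and 1.43 and 1.03 in ILTCkP. The 3 tumour groups did not overlap, an order found in 3.26% of all tested genes, and the 2 thymic groups overlapped.

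The log2 fold change of Ifng from PD1+ Tconv to NK1.1+ ILTCk was -3.31 ± 0.44 (SE), with an adjusted p of 0.0779 from edgeR, 0.00708 with the replicate block and 1.94e-08 from DESeq2. Within replicate numbers the log2 ratio was -3.09 for replicate 1 and -3.28 for replicate 2. From PD1+ Tconv to NK1.1- ILTCk it was -1.70 ± 0.41, with an adjusted p of 0.351 from edgeR, 0.0697 with the block and 0.0284 from DESeq2. The 4 CD3 chain genes were used as a rough measure of T cell RNA. They summed to 2536 and 1631 CPM in PD1+ Tconv, 950 and 646 CPM in NK1.1- ILTCk, and 1982 and 391 CPM in NK1.1+ ILTCk. Their sums were lower in NK1.1- ILTCk than in PD1+ Tconv, and the range of NK1.1+ ILTCk overlapped both other groups. The chains did not move together: in PD1+ Tconv, Cd3e was at 904 and 315 CPM and Cd3d at 488 and 597 CPM. CD3 RNA per T cell was not measured. A higher value per CD3 count cannot be told apart from less CD3 RNA per cell. Per 1000 CD3 counts, Ifng was 28.3 and 36.1 in PD1+ Tconv, against 19.8 and 40 for NK1.1- ILTCk and 4.25 and 15.5 for NK1.1+ ILTCk. On that scale NK1.1+ ILTCk lay below both other groups, whereas NK1.1- ILTCk and PD1+ Tconv overlapped. The share of all genes that separate on that scale is not given here, and the part of T cell RNA content in the Ifng levels was not tested. Scaling edgeR to CD3 counts left the log2 fold changes at -1.71 (adjusted p = 0.357) and -0.10 (adjusted p = 0.957), where the median of all tested genes itself shifted to 1.70 and 1.49.

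Tnf, an inflammatory cytokine that T cells, NK cells and macrophages all make, was higher in replicate 2 than in replicate 1 of each tumour group. Its level was 39.95 and 181 CPM in NK1.1- ILTCk, 38.6 and 191 CPM in NK1.1+ ILTCk, and 20.1 and 56.8 CPM in PD1+ Tconv. Replicate 2 was 4.53, 4.95 and 2.83 times replicate 1 in these groups, and 3.23% of all tested genes were more than 2-fold higher in replicate 2 in all 3 groups. Between NK1.1+ ILTCk and PD1+ Tconv the groups overlapped, with a log2 fold change of 1.42 ± 0.98 and an edgeR adjusted p of 0.569. Within replicate numbers Tnf was higher in ILTCk than in PD1+ Tconv each time, by log2 ratios of 0.94 and 1.75 for NK1.1+ and of 0.99 and 1.67 for NK1.1- cells, and the block gave adjusted p-values of 0.11 and 0.134. The 2 ILTCk groups differed by log2 ratios of -0.05 and 0.08 within replicate numbers.

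In the thymus Tnf stood at 12 and 10.6 CPM in CD8SP and at 5.04 and 3.62 CPM in ILTCkP. The groups did not overlap, and the log2 fold change was -1.38 ± 0.40, with an adjusted p of 0.119 from edgeR and 0.0378 from DESeq2. Transcripts of dissociation stress, such as Fos and Jun, also varied in the tumour libraries: the stress list summed to 4984 and 6072 CPM in NK1.1- ILTCk, 3506 and 9042 CPM in NK1.1+ ILTCk, and 4679 and 3602 CPM in PD1+ Tconv. In the 2 ILTCk groups the sum was higher in replicate 2, as Tnf was, and in PD1+ Tconv it was lower. The genes of the list were divided in PD1+ Tconv. Fos (349 and 594 CPM), Jun (187 and 193 CPM), Egr1 and Atf3 were higher in replicate 2. Hspa1b (1247.5 and 539 CPM), Hspa1a, Dnajb1, Hsp90aa1, Dusp1 and Ier2 were lower. Macrophage genes were higher in replicate 2 of NK1.1+ ILTCk and PD1+ Tconv and lower in replicate 2 of NK1.1- ILTCk. The part of either in the Tnf levels was not tested.

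Csf2, which encodes GM-CSF, a growth factor for macrophages and granulocytes, was low in every library. It had 3 and 7 counts in CD8SP and 15 and 9 in ILTCkP. In the tumour it stood at 2.42 and 1.21 CPM in NK1.1- ILTCk, 4.28 and 0.287 CPM in NK1.1+ ILTCk, and 1.65 and 0.0762 CPM in PD1+ Tconv. Replicate 1 was the higher in each tumour group, and all 3 groups overlapped. The widest of the members' standard errors belonged to this gene, with a log2 fold change of 0.84 ± 1.49 between NK1.1- ILTCk and PD1+ Tconv and an edgeR adjusted p of 0.862. For NK1.1+ ILTCk against PD1+ Tconv it was 1.23, and -1.79 without NK1.1+ ILTCk replicate 1.

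Lta and Ltb encode lymphotoxin-α and lymphotoxin-β, which form the ligand of the lymphotoxin-β receptor that organises lymphoid tissue. Ltb was 664 and 842 CPM in CD8SP, 362 and 649 CPM in ILTCkP, 235 and 230 CPM in PD1+ Tconv, 80.5 and 73.3 CPM in NK1.1- ILTCk, and 117 and 32 CPM in NK1.1+ ILTCk. Every thymic library was above every tumour library, and PD1+ Tconv lay above both ILTCk groups without overlap. Lta was flat in the thymus, at 28 and 24.7 CPM in CD8SP and 28 and 26.6 CPM in ILTCkP. PD1+ Tconv held it at 24.2 and 27.4 CPM, NK1.1- ILTCk at 16.7 and 13.4 CPM, and NK1.1+ ILTCk at 12.9 and 3.73 CPM. The 3 tumour groups again did not overlap for Lta, in the order of Ifng, which 3.26% of all tested genes had.

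Against PD1+ Tconv, Ltb had a log2 fold change of -1.77 ± 0.61 for NK1.1+ ILTCk and also -1.77 ± 0.61 for NK1.1- ILTCk, with edgeR adjusted p-values of 0.276 and 0.376. Lta had -1.76 ± 0.64 (adjusted p = 0.294) and -0.95 ± 0.62 (adjusted p = 0.578) by the same edgeR fits. Per 1000 CD3 counts Ltb was 92.9 and 141 in PD1+ Tconv, against 84.7 and 113 for NK1.1- ILTCk and 59 and 82 for NK1.1+ ILTCk, so that PD1+ Tconv and NK1.1- ILTCk overlapped on that scale. In ILTCkP against CD8SP the log2 fold change was -0.58 ± 0.33 for Ltb (edgeR adjusted p = 0.357) and 0.05 for Lta (edgeR adjusted p = 0.932).

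The balance of the neighbouring genes Tnf and Lta separated thymus from tumour. The ratio of Tnf to Lta counts was 0.429 and 0.427 in CD8SP, 0.18 and 0.136 in ILTCkP, 0.83 and 2.07 in PD1+ Tconv, and for ILTCk 2.4 and 13.5 in the NK1.1- and 3 and 51.2 in the NK1.1+ libraries. This within-library ratio does not depend on scaling, but macrophages also make TNF. The highest ratio was in NK1.1+ ILTCk replicate 2, which had the highest macrophage sum. The part of macrophage RNA in the ratio was not tested. Each tumour library had a higher ratio than each thymic library, and both ILTCk groups exceeded PD1+ Tconv within each replicate number. The ratio of Ifng to Tnf counts ran the other way in the tumour, at 3.57 and 1.04 in PD1+ Tconv, against 0.472 and 0.143 for NK1.1- ILTCk and 0.218 and 0.0318 for NK1.1+ ILTCk. PD1+ Tconv replicate 1 thus held more Ifng than Tnf counts, and all 4 ILTCk libraries held fewer. In PD1+ Tconv replicate 2 the counts were about equal, as the 95% counting interval of the ratio was 0.937 to 1.15.

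Ccl3 and Ccl4 encode the paired chemokines MIP-1α and MIP-1β. Ccl4 was 267 and 298 CPM in PD1+ Tconv, 232 and 185 CPM in NK1.1+ ILTCk, and 98.7 and 72.5 CPM in NK1.1- ILTCk. Ccl3 was 96.9 and 80.2 CPM in PD1+ Tconv, 71.3 and 115 CPM in NK1.1+ ILTCk, and 32.9 and 21.6 CPM in NK1.1- ILTCk. For both genes NK1.1- ILTCk was the lowest tumour group without overlap, and for Ccl3 the other 2 groups overlapped.

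Ccl4 had a log2 fold change of -1.90 ± 0.39 from PD1+ Tconv to NK1.1- ILTCk, with an adjusted p of 0.344 from edgeR, 0.0431 with the replicate block and 0.00359 from DESeq2. Ccl3 had -1.88 ± 0.41, with an adjusted p of 0.344 from edgeR, 0.0547 with the block and 0.0125 from DESeq2. Between NK1.1+ and NK1.1- ILTCk the changes were 1.79 ± 0.41 for Ccl3 and 1.32 ± 0.38 for Ccl4, both with an edgeR adjusted p of 1 and unadjusted p-values of 0.0031 and 0.0101. NK1.1+ ILTCk and PD1+ Tconv differed by -0.08 ± 0.40 for Ccl3 and -0.58 ± 0.38 for Ccl4, with edgeR adjusted p-values of 0.954 and 0.543. Per 1000 CD3 counts Ccl4 was 105 and 183 in PD1+ Tconv, against 104 and 112 for NK1.1- ILTCk and 117 and 474 for NK1.1+ ILTCk. On that scale PD1+ Tconv overlapped both ILTCk groups, and edgeR scaled to CD3 counts gave -0.42 for Ccl4 in NK1.1- ILTCk against PD1+ Tconv and turned the NK1.1+ ILTCk values to 1.91 for Ccl3 and 1.04 for Ccl4. Macrophage transcripts were highest in NK1.1+ ILTCk, and their part in Ccl3 and Ccl4 was not tested.

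In the thymus the pair moved apart. Ccl4 was 5.56 and 6.68 CPM in CD8SP and 1.86 and 1.09 CPM in ILTCkP, whereas Ccl3 was 0.983 and 0.901 CPM in CD8SP and 2.01 and 1.75 CPM in ILTCkP. The log2 fold change was -2.06 ± 0.52 for Ccl4, with an adjusted p of 0.0897 from edgeR and 0.0131 from DESeq2, and 0.99 ± 0.61 for Ccl3, with an edgeR adjusted p of 0.390. The ratio of Ccl3 to Ccl4 counts was 0.177 and 0.135 in CD8SP and 1.08 and 1.61 in ILTCkP. The tumour libraries lay between these, at 0.269 to 0.363 in 5 of them and at 0.618 in NK1.1+ ILTCk replicate 2, the library with the highest macrophage sum.

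Ccl5, also known as RANTES, is a chemokine of memory and effector T cells and of NK cells. It rose in ILTCkP, from 3.19 and 5.94 CPM in CD8SP to 83.1 and 76.7 CPM, a log2 fold change of 4.13 ± 0.41 with an edgeR adjusted p of 0.00907. The tumour groups reached 1783 and 1817 CPM in PD1+ Tconv, 528 and 365 CPM in NK1.1- ILTCk, and 1628 and 151 CPM in NK1.1+ ILTCk. The NK1.1+ ILTCk libraries differed 10.8-fold from each other, and their range enclosed that of NK1.1- ILTCk. PD1+ Tconv lay above both, with log2 fold changes of -1.14 ± 0.95 for NK1.1+ ILTCk and -2.19 ± 0.98 for NK1.1- ILTCk and edgeR adjusted p-values of 0.644 and 0.434. Per 1000 CD3 counts the NK1.1+ ILTCk libraries held 821 and 387 Ccl5 counts, against 555 and 565 for NK1.1- ILTCk and 703 and 1114 for PD1+ Tconv.

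Xcl1, or lymphotactin, is made by NK cells and activated CD8 T cells. It rose in ILTCkP, from 17.5 and 19.1 CPM in CD8SP to 60.4 and 82.6 CPM, with a log2 fold change of 1.97 ± 0.30 and an edgeR adjusted p of 0.0242. That call was lost without CD8SP replicate 1 (adjusted p = 0.0963) and without CD8SP replicate 2 (adjusted p = 0.1), with the fold change at 1.92 and 2.03. In the tumour Xcl1 was 307 and 154 CPM in NK1.1- ILTCk, 867 and 198 CPM in NK1.1+ ILTCk, and 339 and 151 CPM in PD1+ Tconv. Replicate 1 was the higher in each group and the groups overlapped, with edgeR adjusted p-values of 0.617 and 0.921 for NK1.1+ and NK1.1- ILTCk against PD1+ Tconv.

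Relative to CD3 chain transcripts the order of Xcl1 was different. Per 1000 CD3 counts it was 437 and 507 in NK1.1+ ILTCk, against 323 and 238 for NK1.1- ILTCk and 134 and 92.8 for PD1+ Tconv. The 3 groups did not overlap, but the share of all genes that separate on this scale is not given here. Scaled to CD3 counts, edgeR gave log2 fold changes of 2.06 (adjusted p = 0.331) for NK1.1+ and 1.31 (adjusted p = 0.545) for NK1.1- ILTCk against PD1+ Tconv, beside the all-gene shifts of 1.70 and 1.49. The NK1.1- value was thus below the shift of all genes. The ratio of Xcl1 to Ccl5 counts, which needs no scaling, was 0.19 and 0.0833 in PD1+ Tconv, while for ILTCk it was 0.582 and 0.421 in the NK1.1- and 0.532 and 1.31 in the NK1.1+ libraries. It was 0.727 and 1.08 in ILTCkP, and 5.5 and 3.21 in CD8SP. PD1+ Tconv had the lowest ratio of the 5 groups, without overlap. The ratios were chosen with the values known and were not tested.

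**Figure D3:**
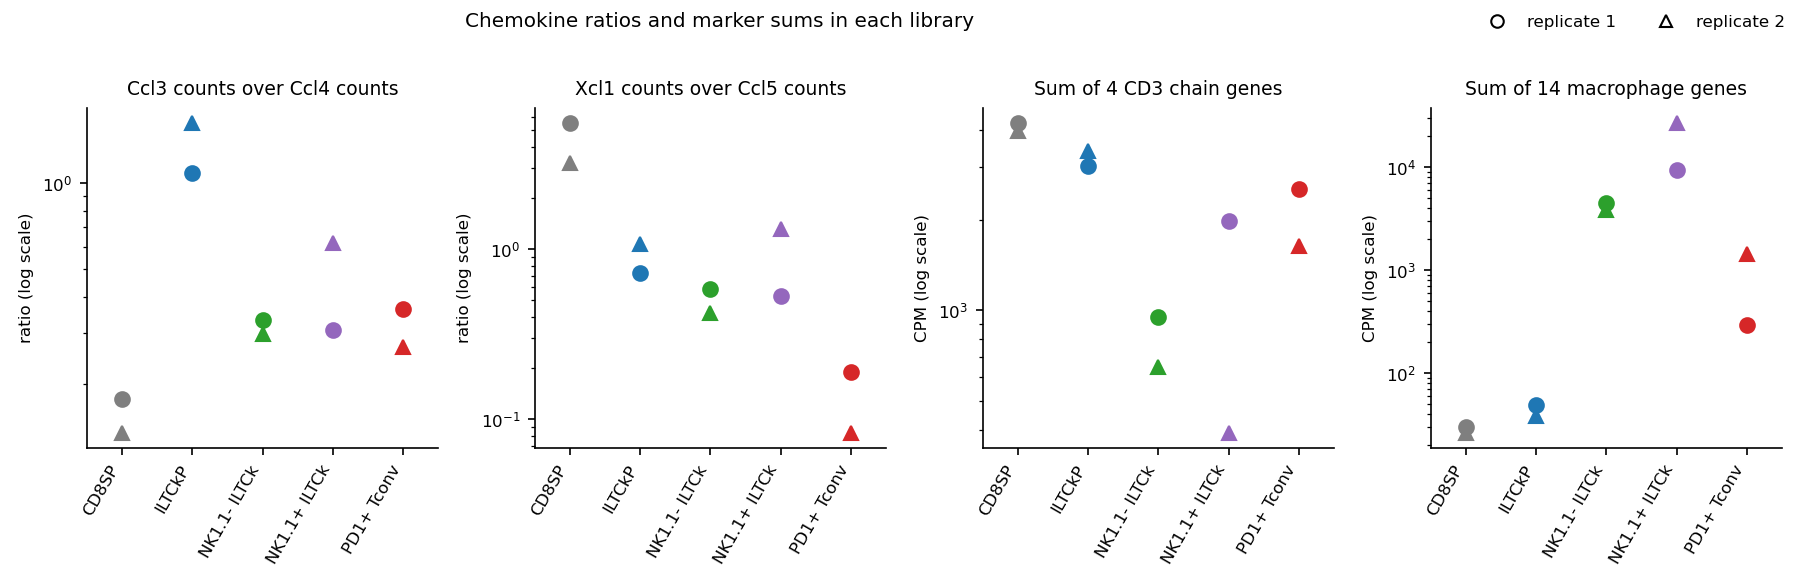
Ratio of Ccl3 to Ccl4 counts, ratio of Xcl1 to Ccl5 counts, summed CPM of 4 CD3 chain genes and summed CPM of 14 macrophage genes in each library, on log axes; circles are replicate 1 and triangles replicate 2. The Xcl1 to Ccl5 ratio is lowest in PD1+ Tconv (0.19 and 0.0833), and the macrophage sum is highest in NK1.1+ ILTCk (9375 and 26737 CPM).

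**Figure D4:**
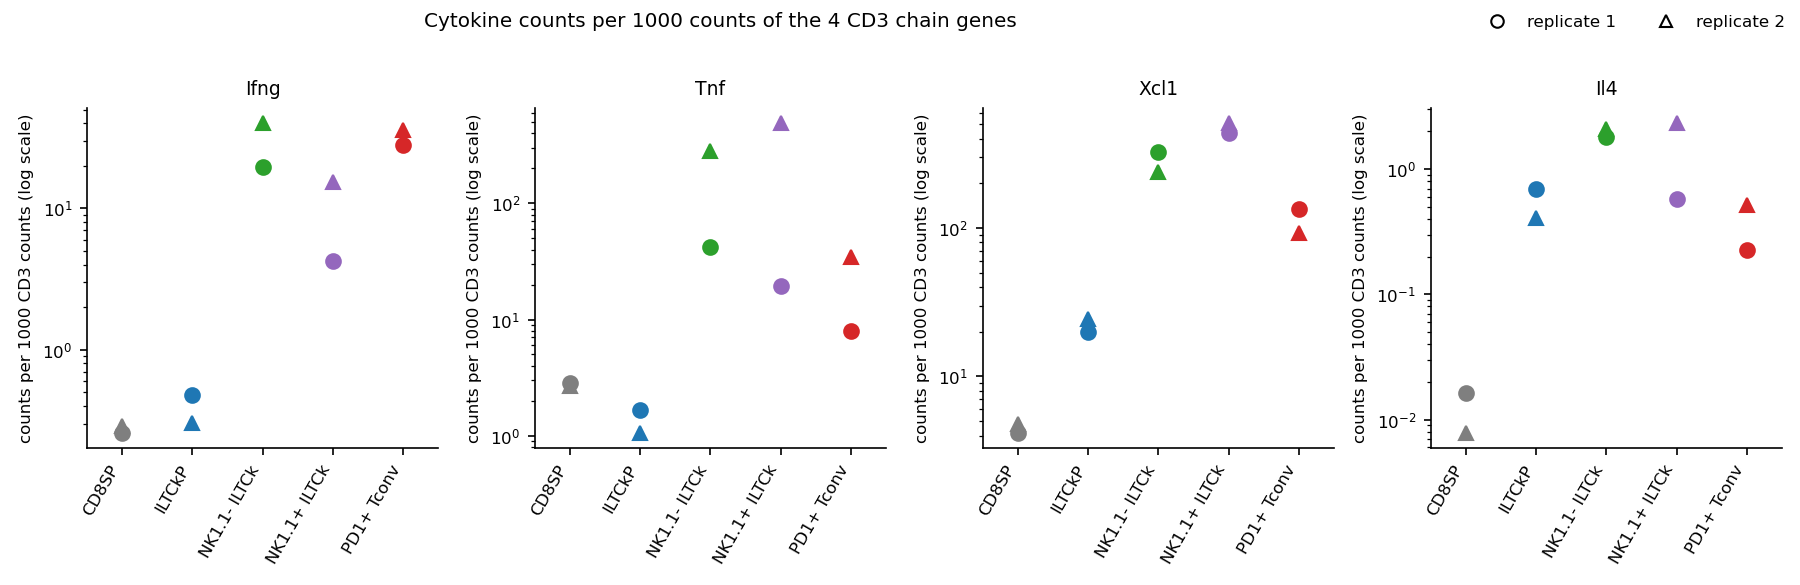
Counts of Ifng, Tnf, Xcl1 and Il4 per 1000 counts of the CD3 chain genes Cd3d, Cd3e, Cd3g and Cd247 in each library, on log axes; circles are replicate 1 and triangles replicate 2. Xcl1 separates the 3 tumour groups (437 and 507, 323 and 238, 134 and 92.8), whereas Ifng overlaps between NK1.1- ILTCk and PD1+ Tconv. The share of all genes that separate on this scale is not given here.

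Il4, the cytokine of type 2 immunity that innate-like T cells can make early in their development, was almost absent from CD8SP and present at a low level elsewhere. CD8SP had 2 and 1 counts and ILTCkP 54 and 46 counts, or 2.09 and 1.39 CPM. The ratio of the summed, scaled counts was 34.9, with an exact 95% interval of 11.6 to 172 that covers counting error only. Il4 rose in ILTCkP by a log2 fold change of 5.03 ± 0.95 with an edgeR adjusted p of 0.0438, a call lost with limma-voom (adjusted p = 0.0648) and without CD8SP replicate 1 (adjusted p = 0.0995) or replicate 2 (adjusted p = 0.239). It was 1.71 and 1.35 CPM in NK1.1- ILTCk, 1.14 and 0.908 CPM in NK1.1+ ILTCk, and 0.569 and 0.838 CPM in PD1+ Tconv. The 3 tumour groups did not overlap, and the share of all genes in that order is not given here. The 95% counting intervals of neighbouring groups did overlap. In replicate 2 they were 0.547 to 1.42 CPM for NK1.1+ ILTCk and 0.418 to 1.5 CPM for PD1+ Tconv. The log2 fold changes were 0.41 ± 0.83 and 0.96 ± 0.83 for NK1.1+ and NK1.1- ILTCk against PD1+ Tconv, with edgeR adjusted p-values of 0.873 and 0.672.

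Other cell types that make IL-4 were examined through their markers. Of 12 genes for mast cells, basophils and eosinophils, 4 and 3 were detected in the ILTCkP libraries and 5 and 4 in CD8SP, with sums of 4.34 and 0.754 CPM and of 5.36 and 0.777 CPM. These sums are of the size of the Il4 level itself. The basophil and mast cell genes Mcpt8, Fcer1a and Ms4a2 were at 0 in both ILTCkP libraries. In CD8SP, Fcer1a and Ms4a2 were also at 0, and Mcpt8 was at 0.475 and 0 CPM. These genes were hardly counted in any library, so their zeros cannot show whether such cells were absent. Cpa3, a mast cell protease, was at 0.465 and 0.634 CPM in ILTCkP and at 0 in CD8SP (edgeR adjusted p = 0.0897, or 0.0430 with the replicate block), and Siglecf, an eosinophil receptor, was at 2.09 and 0.0905 CPM in ILTCkP and at 0 in CD8SP (DESeq2 adjusted p = 0.011; not tested by edgeR). The invariant natural killer T segments Traj18 and Trav11 were at 0 in all 4 thymic libraries. Traj18 was also at 0 in every tumour library, and Trav11 was above 0 only in PD1+ Tconv replicate 1 (0.18 CPM). Zeros of segments hardly counted in any library cannot show whether such cells were absent. Zbtb16, which encodes PLZF, the factor of innate-like T cells, was at 261 and 75.2 CPM in ILTCkP and at 0 counts in CD8SP. Of the γδ T cell list, 5 of the 7 tested genes rose in ILTCkP beside Il4, Ccl5 and Xcl1, where 3.38% of all tested genes rose. Trdc, the δ constant gene, was at 54.3 and 35.7 CPM in ILTCkP and 16 and 14 CPM in CD8SP, while Trac, the α constant gene, was at 1257 and 1198 CPM and at 1684 and 1444 CPM. 

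Lists of 2 other lymphocyte types were also higher in ILTCkP beside these 3 members. By edgeR 3.38% of all tested genes rose there and 1.33% fell. The list for CD4 helper and regulatory T cells, of which helper cells make IL-4, summed to 431 and 492 CPM in ILTCkP and to 180 and 160 CPM in CD8SP. Of its 8 genes 4 rose by edgeR and none fell: Foxp3, Cd40lg, Ikzf2 and Zbtb7b, the last of which encodes the CD4 lineage factor ThPOK. Ikzf2 supplied most of the sum, at 320 and 422 CPM against 144 and 142 CPM, and Cd4 itself was at 24.6 and 17.6 CPM against 13.8 and 4.94 CPM (edgeR adjusted p = 0.282). The NK cell and innate lymphoid list summed to 420 and 465 CPM in ILTCkP against 169 and 167 CPM. Of its 7 tested genes 2 were called higher (Kit and Klrb1c) and 1 lower (Eomes). Kit, at 203 and 287 CPM, and Gata3, at 158 and 110 CPM, supplied most of the ILTCkP sum. Il7r was lower, at 41 and 45.2 CPM against 79.2 and 72.2 CPM. The NK cell genes Ncr1 and Klra8 were at 0 in all 4 thymic libraries. The part of mast cells, eosinophils, CD4, γδ or NK cells in the rises of Il4, Ccl5 and Xcl1 was not tested.

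Counted over all members, non-overlapping libraries were found for 6 of 10 between NK1.1+ ILTCk and PD1+ Tconv, 1 higher (25.3% of all tested genes) and 5 lower (17.4%) in NK1.1+ ILTCk. Between NK1.1- ILTCk and PD1+ Tconv they were found for 7, 1 higher (28.8%) and 6 lower (17.8%) in NK1.1- ILTCk. Between the ILTCk groups they were found for 5, with Ccl3 and Ccl4 higher (16.4%) and Ifng, Lta and Il4 lower (20.6%) in NK1.1+ ILTCk. In both comparisons with PD1+ Tconv the 1 higher member was Il4, and Ifng, Lta, Ltb, Ccl4 and Ccl5 were lower in each.

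The receptors and signalling genes around the members were taken from 6 lists. The edgeR counts for ILTCkP against CD8SP below stand beside 3.38% of all tested genes that rose and 1.33% that fell. Of 11 tested receptors of the members, 1 rose in ILTCkP against CD8SP: Tnfrsf1b, which encodes TNF receptor 2, at 696 and 590 CPM against 243 and 239 CPM (log2 fold change 1.42 ± 0.21, edgeR adjusted p = 0.0224). Ifngr2, a chain of the interferon-γ receptor, had a log2 fold change of -1.71 ± 0.54 with an edgeR adjusted p of 0.147. Of 14 other lymphocyte cytokines and chemokines tested, 3 rose and none fell, all 3 TNF family ligands: Tnfsf14 (LIGHT, which also binds the lymphotoxin-β receptor) by 3.33 ± 0.36, Tnfsf10 (TRAIL) by 2.14 ± 0.37 and Cd40lg (CD40 ligand) by 2.42 ± 0.44. Their edgeR adjusted p-values were 0.0102, 0.0353 and 0.0393.

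Of 30 transcription factors of cytokine genes, 3 rose and 1 fell in ILTCkP. Tbx21, which encodes T-bet, an activator of Ifng, went from 4.17 and 3.51 CPM in CD8SP to 31.5 and 47.2 CPM in ILTCkP (log2 fold change 3.35 ± 0.38, edgeR adjusted p = 0.0112), while Ifng itself was near 1 CPM in both groups. Nfkb1, an NF-κB subunit, rose by 2.31 ± 0.26 (edgeR adjusted p = 0.0108), and the other factor that rose was Zbtb16. The 1 that fell was Eomes, the T-box relative of T-bet, with a log2 fold change of -2.63 ± 0.48 (edgeR adjusted p = 0.0401).

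Of 18 tested interferon-γ signalling genes and targets, 4 fell and 1 rose in ILTCkP, with a list median of -0.70. The 4 that fell were Gbp2 (log2 fold change -1.59 ± 0.25) and the immunity-related GTPases Igtp (-1.69 ± 0.21), Irgm1 (-1.81 ± 0.32) and Iigp1 (-3.24 ± 0.52). Igtp was at 95.7 and 88.8 CPM in ILTCkP and 298 CPM in both CD8SP libraries, with an edgeR adjusted p of 0.0133. The 1 that rose was Irf8, an interferon regulatory factor, by 1.54 ± 0.27 (edgeR adjusted p = 0.0353). Of 20 TNF and NF-κB signalling genes, 1 rose (Tnip1, an inhibitor of NF-κB signalling, by 1.40 ± 0.26, edgeR adjusted p = 0.0432) and none fell. Of 16 regulators of cytokine mRNA decay, edgeR called none, DESeq2 called 3 (beside 13.3% of all its genes) and 5 had an unadjusted p under 0.05 (beside 22.1% of all tested genes). Of the listed genes that changed in the thymic comparison, Tnfrsf1b, Cd40lg, Gbp2, Irf8 and Tnip1 lost the call without either CD8SP library, Tnfsf10 and Iigp1 without CD8SP replicate 2 and Eomes without CD8SP replicate 1, with edgeR adjusted p-values from 0.0567 to 0.337.

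In the tumour comparisons edgeR called no gene of these lists, and the following values are given for the genes with the smallest p. Eomes was at 126 and 74 CPM in PD1+ Tconv, 7.51 and 7.21 CPM in NK1.1- ILTCk, and 3.41 and 1.48 CPM in NK1.1+ ILTCk. Its log2 fold change against PD1+ Tconv was -5.48 ± 0.61 in NK1.1+ ILTCk (adjusted p of 0.0725 from edgeR and 0.00231 with the replicate block) and -3.93 ± 0.56 in NK1.1- ILTCk (0.285 and 0.0286). It thus had the group order of Ifng. Tnfaip3, which encodes the NF-κB brake A20, was at 952 and 343 CPM in PD1+ Tconv against 134 and 166 CPM in NK1.1+ ILTCk, a log2 fold change of -2.26 ± 0.57 with an edgeR adjusted p of 0.184 and 0.0499 with the block.

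Zfp36, which encodes tristetraprolin, a protein that speeds the decay of Tnf mRNA, was at 396 and 1068 CPM in NK1.1+ ILTCk and 139 and 159 CPM in PD1+ Tconv, with a log2 fold change of 2.14 ± 0.55 and an edgeR adjusted p of 0.185, or 0.0460 with the block. Among the receptors, Ccr1, which binds CCL3 and CCL5, was at 70.5 and 164 CPM in NK1.1+ ILTCk and 1.44 and 7.39 CPM in PD1+ Tconv (4.60 ± 0.86, edgeR adjusted p = 0.111). Csf2ra, the GM-CSF receptor chain, was at 54.2 and 65.3 CPM and 3.89 and 8.08 CPM in the same groups (3.18 ± 0.60, edgeR adjusted p = 0.111). The block gave adjusted p-values of 0.00473 for Ccr1 and 0.0184 for Csf2ra. Both are receptors that macrophages carry, and the macrophage sums were higher in the same libraries. The part of macrophage RNA in these values was not tested.

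Of 19 interferon-γ signalling genes and targets, 14 had negative log2 fold changes for NK1.1+ ILTCk and 15 for NK1.1- ILTCk against PD1+ Tconv, with list medians of -0.73 and -0.77. Of all 18091 tested genes, 9317 and 9445 were negative, with a median of -0.04 in both. Other lists lay as low: 14 and 15 of the 16 decay regulators were negative, with medians of -0.88 and -1.06, and all 10 T cell genes, with medians of -1.15 and -1.60. Nlrc5, the activator of MHC class I genes, was at 436 and 186 CPM in PD1+ Tconv, 113 and 60.3 CPM in NK1.1+ ILTCk, and 80.4 and 42.2 CPM in NK1.1- ILTCk. PD1+ Tconv lay above both ILTCk groups without overlap. The log2 fold changes from PD1+ Tconv were -1.97 ± 0.60 for NK1.1+ and -2.52 ± 0.61 for NK1.1- ILTCk, with edgeR adjusted p-values of 0.234 and 0.351, or 0.0195 and 0.0286 with the block.

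Over the 10 libraries and 9130 genes with a mean of at least 10 CPM, the gene most like Ifng in log2(CPM + 0.5) was Runx2, a RUNX factor (Pearson r = 0.992), followed by Atxn1 (0.966) and Gphn (0.964). Ltb was most like Mgst2 (0.990) and Cd247 (0.985), the CD3 ζ chain. Ccl3 was most like Glrx and Gnb1 (both 0.985), Ccl4 most like Bcl2a1b (0.983), Ccl5 most like Serpina3g (0.978), Xcl1 most like Cd200r4 (0.982) and Tnf most like Apol9a (0.981). Csf2 had the weakest best match, Ly6g5b at 0.900. These values describe 10 libraries that share tissue, table and depth, and most of the spread lies between thymus and tumour. Over the 6 tumour libraries the members' own correlations ran from -0.82 between Tnf and Ccl5 to 0.95 between Ltb and Ccl5. Neighbouring genes went both ways. Ccl3 and Ccl4 were at 0.89 and Lta and Ltb at 0.92, but Tnf was at -0.70 with Lta and -0.76 with Ltb. Tnf and Ifng were at -0.48. All were taken over libraries that also share groups and replicate numbers.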

How the data were processed

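Bulk RNA was sequenced from 10 mouse T cell libraries, and 4 single-cell libraries of the series were not analysed here. The authors deposited raw counts per gene in 2 tables of 50508 symbols each, which the labels' description and the whole-number values show. Per the submitters' processing notes the build was mm10 and the tools were DESeq, Cell Ranger 3.0.2 and Seurat 2.3.4; the sources used here name no aligner, counter or annotation. Mitochondrial genes held 0 counts.

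Each table was fitted apart with edgeR 4.0.16 in R 4.3.3 (filterByExpr, TMM within the table, robust quasi-likelihood test, Benjamini-Hochberg adjustment over all tested genes), and calls were made at an adjusted p under 0.05. The tumour comparisons shared 1 estimate of spread from 6 libraries. Fold changes come from these fits, while CPM levels are scaled over 10 libraries. Exon lengths are from GENCODE M21 (GRCm38), promoters from RefSeq (GRCm38.p6), where 8 members were matched; Ccl4 and Ccl5 were not. Alternatives were RLE scaling, DESeq2 1.42.0, limma-voom (limma 3.58.1), no count filter, at least 50 counts in 2 libraries, a replicate block, scaling to CD3 counts, leaving out each library, and fitting only the 4 tumour libraries compared.

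Replicate numbers come from the labels, which do not say what a number shares. The deviations of same-numbered tumour libraries from their group means correlated at r = 0.361, 0.325 and 0.337 in the 3 pairs of groups (over 18091 genes), so these numbers were treated as pairing the libraries. The members and the 6 pathway and 14 marker lists were chosen with earlier results of these data known. Named besides the members were up to 4 genes of each pathway list with the smallest p and at least 5 CPM in a compared group, marker genes whose values bear on a result, and the 3 genes most like each member; Irgm1 in the thymic comparison was named after its values were seen, to complete a count. Some genes of these pathways are not reported here, and the list counts leave them out.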

Additional observations from a re-analysis of the deposited data

How the results depend on the processing

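Of the values for the 4 comparisons, the 4 compared tumour libraries alone, RLE scaling and the stricter count filter changed no count of calls by over 1.5 times. Between ILTCkP and CD8SP the 689 calls became 2052 with DESeq2, 2535 with no count filter and 2212 with the replicate block, which called 3 members higher and 1 lower there; this single pair of numbers correlated at 0.0918, so the libraries share only a number. Leaving out a library gave 592 to 7017 calls, and members called went from 3 to 5 with DESeq2 and to between 1 and 6 with a library left out. In NK1.1+ ILTCk against PD1+ Tconv the 0 calls became 1223 with DESeq2, 3 with limma-voom, 1249 with no filter, 755 with the replicate block, 485 scaled to CD3 counts and 0 to 35 with a library left out, and members called became 1 with DESeq2, 2 with no filter and 1 with the block. In NK1.1- ILTCk against PD1+ Tconv they became 605, 799 with no filter, 298 with the block and 25 scaled to CD3 counts, with 3, 4 and 1 members by the first 3 of these. Between the ILTCk groups DESeq2 called 55 genes and no filter 167, with no member. By library totals without TMM, 4 members in place of 3 had their highest mean in PD1+ Tconv.

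Directions turned for some values that had not passed the test. With a library left out, Ifng in ILTCkP against CD8SP ranged from -0.12 (without ILTCkP replicate 1) to 0.36 and Lta from -0.04 (without CD8SP replicate 2) to 0.16. In NK1.1+ ILTCk against PD1+ Tconv, Tnf ranged from -0.09 (without NK1.1+ ILTCk replicate 2) to 2.32, and Csf2 from -1.79 to 4.71, Xcl1 from -0.48 to 1.71 and Ccl3 from -0.42 to 0.21 (-1.79, -0.48 and 0.21 without NK1.1+ ILTCk replicate 1; Ccl3 was 0.08 without PD1+ Tconv replicate 1). In NK1.1- ILTCk against PD1+ Tconv, Tnf ranged from -0.11 (without NK1.1- ILTCk replicate 2) to 2.30, Csf2 from -0.05 (without PD1+ Tconv replicate 2) to 4.32 and Xcl1 from -0.79 to 0.44 (without PD1+ Tconv replicate 1). Between the ILTCk groups, Tnf was -1.49 and Ltb 0.66 without NK1.1+ ILTCk replicate 2 (-0.70 and 0.01 without NK1.1- ILTCk replicate 1), and Ccl5 was -1.56, Xcl1 -0.21 and Csf2 -2.63 without NK1.1+ ILTCk replicate 1 (Csf2 -0.02 without NK1.1- ILTCk replicate 2); the other ends of their ranges were 1.54, -1.27, 1.92, 1.98 and 1.30. Scaled to CD3 counts, Ccl3 became 1.91 and Ccl4 1.04 in NK1.1+ ILTCk against PD1+ Tconv, Lta 0.54 and Xcl1 1.31 in NK1.1- ILTCk against PD1+ Tconv, and Csf2 -0.59 between the ILTCk groups, where it was also -0.60 with limma-voom and -0.69 with the replicate block. The causes were not tested. Groups of 2 libraries limit all values, and Csf2 and Il4, under 5 CPM, also have few counts.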
